A study of Macaca fuscata with 12 samples.

Results

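The mitochondrial respiratory chain was read on 12 Affymetrix rhesus macaque arrays of Japanese macaque (Macaca fuscata) cortex, complex by complex. Members were all probe sets that the array's annotation gives a single gene symbol beginning with NDUF, UQCR or ATP5, or naming an SDHA to SDHD, COX4 to COX8, CYC1 or CYCS gene. This gave 108 of 52766 probe sets and 65 of 14132 genes. Complex I held 44 probe sets of 26 genes, its assembly factors 10 of 6 genes, complex II 4 of 3 genes, complex III 13 of 7 genes, complex IV 11 of 8 genes and complex V 26 of 15 genes. CYCS, the soluble cytochrome c, had 0 single-symbol probe sets. A further 12 probe sets that share several symbols, among them those of COX4I1 and COX6A1, were left out. Of the 65 genes, 34 had 1 probe set and 31 had several, and 17 of the 108 probe sets are of the array's _s_at or _x_at types, which can match more than 1 transcript.

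Each of 4 groups held 3 arrays: trained and control animals in SII, and trained and control animals in IPS. SII is cortex around the lateral sulcus that holds the secondary somatosensory area, and IPS is cortex around the intraparietal sulcus, in each case from the left hemisphere. Trained animals had learned tool use, and control animals had not, as far as the labels say. The labels give neither genotype nor drug, and ages ran from 3 years 9 months to 6 years. Of 8 animals, 4 gave both regions: 334M (SII trained 1 and IPS trained 1), 348M (SII trained 3 and IPS trained 3), 347M (SII control 2 and IPS control 1) and 354M (SII control 3 and IPS control 2). The animals of SII trained 2 and SII control 1 were female, the other 10 arrays came from males.

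The chain carries electrons from NADH (complex I) and succinate (complex II) through complex III and cytochrome c to oxygen at complex IV. Complexes I, III and IV pump protons across the inner mitochondrial membrane, and complex V, the ATP synthase, uses the gradient to make ATP. Neurons draw most of their ATP from this path, largely to run ion pumps at synapses. Most subunits are encoded in the nucleus, which is what these probe sets read, while a core set comes from mitochondrial DNA and is not covered here.

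Each value is a log2 signal that the authors centred so that a probe set's median over the 12 arrays is 0. Values therefore compare arrays, not genes, and a level cannot be read from them. A signal class was recovered from the precision of the numbers: 55 members (50.9%) were bright (the high class), 40 of middle signal and 13 of low signal, against 8.49%, 39.5% and 33.2% of all probe sets, and 0 members lay at the floor that held 18.8% of all. The median standard deviation within groups was 0.24 for high-signal members, 0.31 for middle and 0.71 for low, so low-signal members carry the least weight. In bulk tissue, fewer cells of a type and less RNA per cell cannot be told apart.

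Some arrays stood apart before any comparison was made. Hybridisation controls, which are spiked in at a fixed amount, were raised by 0.54 in SII trained 2, 0.44 in IPS trained 3 and 0.48 in SII control 1, against -0.13 to 0.08 elsewhere. The actin 3′ minus 5′ difference, a mark of RNA integrity and labelling on this array type, was lowest in 2 trained arrays, SII trained 3 (-1.54) and IPS trained 1 (-0.79), and in 2 control arrays, SII control 2 (-1.87) and SII control 3 (-1.71). It was highest in IPS trained 3 (1.37) and SII trained 1 (1.17). Of the measured markers, 8 of 8 for excitatory neurons, 8 of 8 for inhibitory neurons and 7 of 8 for astrocytes had a high or middle signal, as did 0 of 4 red blood cell genes and 1 of 6 muscle genes.

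Tool-use training was not accompanied by a detectable change of the respiratory chain in either region. In SII, 0 of 108 members passed a 5% false discovery rate over all probe sets (limma), where 0.0% of all probe sets did, and 0 members reached an unadjusted p under 0.05, where 3.87% of all probe sets did. In IPS the counts were also 0 and 0, against 0.0% and 3.27% of all probe sets. For the difference of the training changes, IPS minus SII, they were 0 and 0, against 0.0% and 3.68%. The sign was split evenly in SII, with 52 members higher and 56 lower in trained animals and a median change of 0.00. Over all probe sets 56.4% were higher, with a median of 0.06. Among high-signal members 28 were higher and 27 lower, while 65.5% of all high-signal probe sets were higher. The member counts depended on single arrays. Taken as differences of group means, 67 were higher and 41 lower without SII control 1, and 40 and 68 without SII trained 2. Among high-signal members the counts were 41 and 14 without SII control 1 and 15 and 40 without SII trained 2. In IPS, 71 were higher and 37 lower, with a median of 0.07 against 0.01 over all probe sets, of which 51.7% were higher.

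The members were measured closely enough to bound most changes. The 95% interval lay within 1 log2 unit of 0, a 2-fold change either way, for 85 members in SII (78.7%) and 86 in IPS (79.6%), against 35.0% and 36.2% of all probe sets. Within the high-signal class that share was 92.7% of members in both regions, against 89.9% of all probe sets in SII and 91.5% in IPS, so members resembled other bright probe sets in this. For the difference between the regions' training changes, 50 members (46.3%) had such an interval, against 17.1%.

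**Figure D1:**
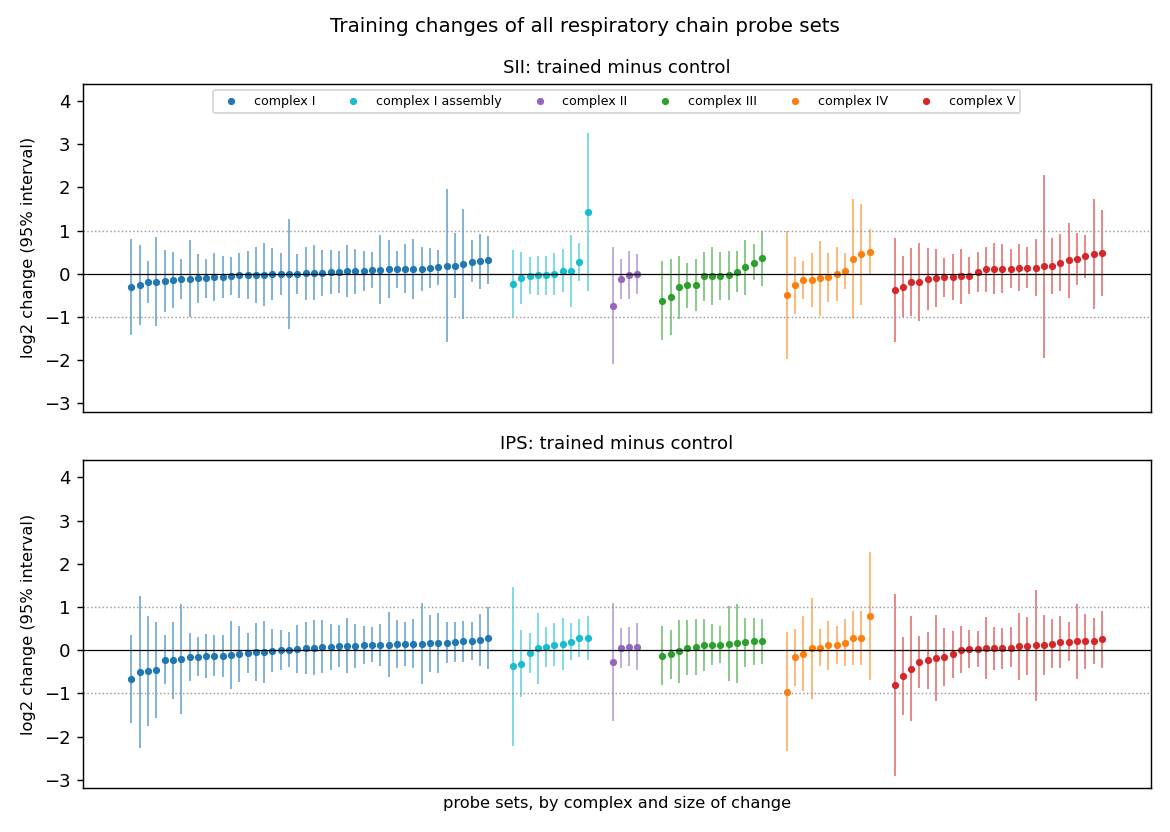
Log2 change in trained over control animals (points) with the 95% interval from limma (lines) for all 108 probe sets, in SII above and IPS below, grouped by complex and sorted by size; dotted lines mark 1 log2 unit. All 108 intervals include 0 in both regions, and the widest belong to 1 probe set each of ATP5MJ, NDUFAF7 and NDUFA2.

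The tilt toward higher values in trained IPS was clearest among the bright probe sets and smaller without 1 array. Among high-signal members, 49 were higher and 6 lower in trained IPS, with a median of 0.12, against 63.3% higher and a median of 0.05 among all high-signal probe sets. Without IPS trained 1 the counts were 37 higher and 18 lower with a median of 0.06, against 48.9% higher and a median of 0.00, and over all 108 members the median was -0.02. Leaving out any other IPS array kept between 46 and 49 high-signal members higher. IPS trained 1 had the highest median over the 65 genes of all 12 arrays, at 0.20, and a median of 0.16 over all high-signal probe sets.

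Groups that did not overlap were no more frequent among members than elsewhere. In SII, every trained array lay above every control array for 4 members (3.70%) and below for 0, against 4.7% and 2.38% of all probe sets (7.08% together). In IPS this was so for 8 members (7.41%), 6 higher and 2 lower, against 5.77% and 3.72% (9.49% together).

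**Figure D2:**
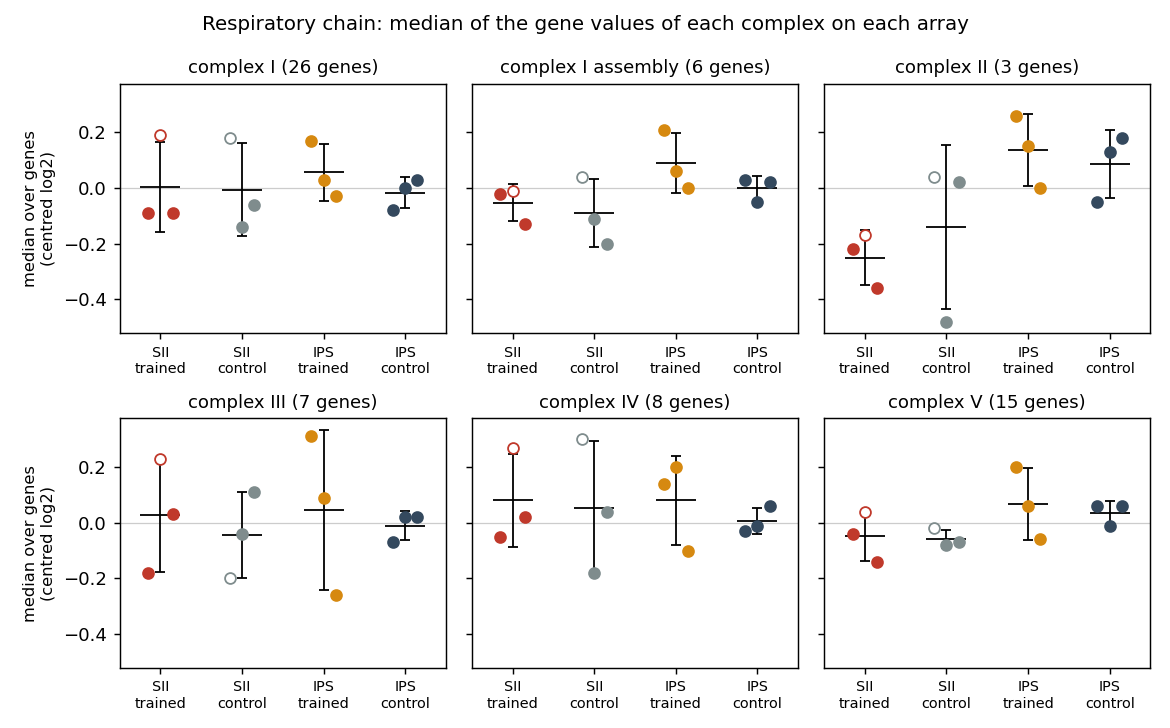
Median over the genes of each complex on each array (points; open points are the 2 arrays of female animals), with the group mean and SD (lines), in centred log2 units, by region with trained left of control. Trained and control arrays overlap in every complex and region, and complex II is the one whose IPS means, 0.14 and 0.09, lie furthest above its SII means, -0.25 and -0.14.

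Complex I, the NADH dehydrogenase, showed no difference between trained and control cortex. Its median over 26 genes was -0.09, 0.19 and -0.09 in SII trained 1 to 3, against 0.18, -0.14 and -0.06 in SII control 1 to 3. In IPS it was 0.17, 0.03 and -0.03 in trained animals, against -0.08, 0.00 and 0.03 in controls. The groups overlapped in both regions, and the high SII arrays, SII trained 2 and SII control 1, were those of the female animals. The mean training difference of the median was 0.01 in SII and 0.07 in IPS, and in SII it turned to -0.05 with quantile normalization and -0.04 with median centring. Of 44 probe sets, 24 were higher and 20 lower in trained SII, and 25 and 19 in trained IPS.

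The complex I probe set whose groups did not overlap in SII was one of NDUFS1, the largest iron-sulfur subunit of the arm that takes electrons from NADH. This probe set, of middle signal, read 0.31, 0.13 and -0.07 in SII trained and -0.28, -0.24 and -0.09 in SII control. The groups did not overlap, by a margin of 1 close pair, and the change was 0.32 ± 0.25 (SE, adjusted p = 1.0). Its other probe set, of high signal, read 0.02, 0.28 and -0.30 in trained animals and 0.44, -0.37 and -0.27 in controls, which overlapped. NDUFV2, the partner flavoprotein subunit, had the smallest unadjusted p of complex I in SII, and its middle-signal probe set gave 0.28 ± 0.22 (adjusted p = 1.0).

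In IPS, 3 high-signal complex I subunits did not overlap between groups, all small accessory subunits. NDUFA6 read 0.12, 0.10 and 0.30 in IPS trained and 0.01, -0.08 and -0.01 in IPS control (0.20 ± 0.22, adjusted p = 1.0). NDUFB2 read 0.17, 0.14 and 0.14 in trained and 0.06, 0.00 and 0.00 in control arrays (0.13 ± 0.18). NDUFC1 read 0.17, 0.10 and 0.07 in trained and -0.02, -0.06 and 0.06 in control arrays (0.12 ± 0.19). The trained arrays were the higher ones in each, by less than the standard error of the fit. The 4 other NDUFA6 probe sets, all of middle signal, overlapped between the groups.

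Within the 4 animals, complex I was slightly higher in IPS than in SII. The median over genes differed by 0.26 in 334M, 0.06 in 348M, 0.07 in 347M and 0.06 in 354M, so 3 of the animals lay close together and 1 stood above them. Over the same pairs the median of all high-signal probe sets differed by 0.15, -0.02, 0.13 and 0.07. NDUFS7, an iron-sulfur subunit next to the quinone site, was higher in IPS by 0.45, 0.74, 0.31 and 0.23 in these animals (0.43 ± 0.18, adjusted p = 0.771). NDUFV1, which holds the flavin that accepts electrons from NADH, was lower in IPS by -0.12, -0.20, -0.25 and -0.57 (-0.29 ± 0.18, adjusted p = 0.778).

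NDUFA4L2, a gene induced by low oxygen and related to NDUFA4, had the largest complex I difference between regions. It read -0.93, 0.04 and -1.53 in IPS trained and -1.06, -0.04 and 0.08 in IPS control, against -0.31, 0.26 and 0.60 in SII trained and 0.46, 1.17 and -0.12 in SII control. The regions overlapped, and 354M was the 1 of the 4 animals in which it was not lower in IPS (0.08, against -0.61, -2.13 and -2.23). The change was -0.93 ± 0.35 over 12 arrays (adjusted p = 0.497) and -1.22 ± 0.48 within animals (adjusted p = 0.771), from a low-signal probe set. NDUFA4 itself, since found to belong to complex IV, differed by -0.04 ± 0.16.

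The assembly factors of complex I leaned the same way in every pair of regions. Their median over 6 genes was -0.02, -0.01 and -0.13 in SII trained, against 0.04, -0.11 and -0.20 in SII control, and 0.21, 0.06 and 0.00 in IPS trained, against 0.03, -0.05 and 0.02 in IPS control. Within animals, IPS was higher by 0.24 in 334M, 0.13 in 348M, 0.15 in 347M and 0.15 in 354M.

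NDUFAF1, a chaperone of the membrane arm of complex I, was the 1 member of 108 (0.926%) whose trained arrays lay above the control arrays in both regions, against 0.298% of all probe sets. It read 0.14, -0.10 and -0.08 in SII trained, against -0.12, -0.42 and -0.30 in SII control. In IPS it read 0.30, 0.41 and 0.22 in trained, against 0.08, -0.13 and 0.16 in control arrays. Trained arrays were higher throughout, the nearest pair being -0.10 and -0.12 in SII. The change was 0.27 ± 0.20 in SII and 0.27 ± 0.20 in IPS, with an adjusted p = 1.0 in both. NDUFAF1 was also higher in IPS than in SII, by 0.32 ± 0.14 (adjusted p = 0.52) and in 4 of 4 animals. Both regions share animals, 2 trained and 2 control, so they are not independent.

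NDUFAF7, a methyltransferase that modifies a complex I subunit in humans, had 3 probe sets that disagreed. A middle-signal probe set gave the largest training change of any member, 1.42 ± 0.83 in SII, from 0.09, 1.31 and 0.02 in trained and 0.76, -2.52 and -1.11 in control arrays. The groups overlapped, and the spread of the controls was larger than the change. Another was apart in IPS, with 0.27, 0.28 and 0.00 in trained and -0.02, 0.00 and -0.27 in control arrays (0.28 ± 0.23).

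Complex II, succinate dehydrogenase, links the chain to the tricarboxylic acid cycle and had the largest within-animal region difference of the complex medians, at 0.35 ± 0.17 (SD, n = 4). The median over SDHA, SDHB and SDHC was -0.22, -0.17 and -0.36 in SII trained and 0.04, -0.48 and 0.02 in SII control. It was 0.26, 0.15 and 0.00 in IPS trained and -0.05, 0.13 and 0.18 in IPS control. Training groups overlapped in both regions. Within animals IPS was higher by 0.48 in 334M, 0.36 in 348M, 0.43 in 347M and 0.11 in 354M, which is 4 of 4. With only 3 genes, the median is the value of SDHA itself on most arrays, among them every SII trained array. The differences of complex II and of SDHA are therefore not separate results. SDHB alone differed by 0.06 ± 0.21 (SE) within animals.

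SDHA, the flavoprotein that oxidises succinate, carried a region difference of nearly the same size in every animal. It read 0.26, 0.15 and 0.15 in IPS trained and -0.04, 0.13 and 0.23 in IPS control, against -0.22, -0.17 and -0.36 in SII trained and 0.04, -0.48 and -0.31 in SII control. The female array SII control 1 was the 1 SII value inside the IPS range. Within animals IPS was higher by 0.48, 0.52, 0.44 and 0.45 in 334M, 348M, 347M and 354M. The change was 0.40 ± 0.14 over 12 arrays (adjusted p = 0.482) and 0.47 ± 0.16 within animals (adjusted p = 0.771), and it was 0.49 in male animals alone. The training difference of SDHA was 0.00 ± 0.21 in SII and 0.08 ± 0.21 in IPS.

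SDHC, a membrane anchor that helps bind quinone, was read by 2 probe sets that differed in size. The low-signal one read 0.25, 0.12 and -0.06 in IPS trained and 0.06, 0.95 and 0.20 in IPS control, against -2.58, -0.60 and -1.27 in SII trained and -1.18, -1.68 and 0.62 in SII control. Only SII control 3 lay inside the IPS range, and IPS was higher in 4 of 4 animals, by 0.32 to 2.83. The change was 1.37 ± 0.43 (adjusted p = 0.461), while the middle-signal probe set gave 0.18 ± 0.15. SDHB, the iron-sulfur subunit, differed by -0.02 ± 0.17 between regions, from an _s_at probe set.

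Complex III passes electrons from quinol to cytochrome c, and it varied among arrays more than it differed between groups. Its median over 7 genes was -0.18, 0.23 and 0.03 in SII trained, against -0.20, -0.04 and 0.11 in SII control. In IPS it was 0.31, 0.09 and -0.26 in trained, against -0.07, 0.02 and 0.02 in control arrays. The highest and the lowest of all 12 arrays were both trained IPS. The animals did not share a direction between regions, with 0.50 in 334M, -0.29 in 348M, -0.03 in 347M and -0.09 in 354M.

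UQCRC2, a core subunit that faces the matrix, gave the largest complex III training change in SII and went with the actin difference of the arrays, whose part in it was not tested beyond the covariate fit given here. It read -0.72, -0.38 and 0.43 in SII trained and -0.22, 0.65 and 0.74 in SII control (-0.62 ± 0.41, adjusted p = 1.0). In IPS it read 0.81, 0.09 and -0.45 in trained and 0.00, 0.00 and -0.02 in control arrays. The 4 arrays with the lowest actin difference, SII trained 3, SII control 2, SII control 3 and IPS trained 1, held the 4 highest values, from 0.43 to 0.81, and the other 8 lay between -0.72 and 0.09. This held for 2 of 108 members (1.85%), UQCRC2 and 1 ATP5F1B probe set, against 0.847% of all probe sets, and for 3.64% of high-signal members, against 1.05% of all high-signal probe sets. With the actin difference as a covariate the SII change was -0.05. The UQCRC1 probe set whose SII change was -0.53 ± 0.39 had a change of -0.11 in that fit. In SII the actin difference itself differed between the arms. It was 1.17, 0.63 and -1.54 in trained and 0.25, -1.87 and -1.71 in control arrays. The covariate fit therefore cannot tell the actin difference and training apart.

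**Figure D3:**
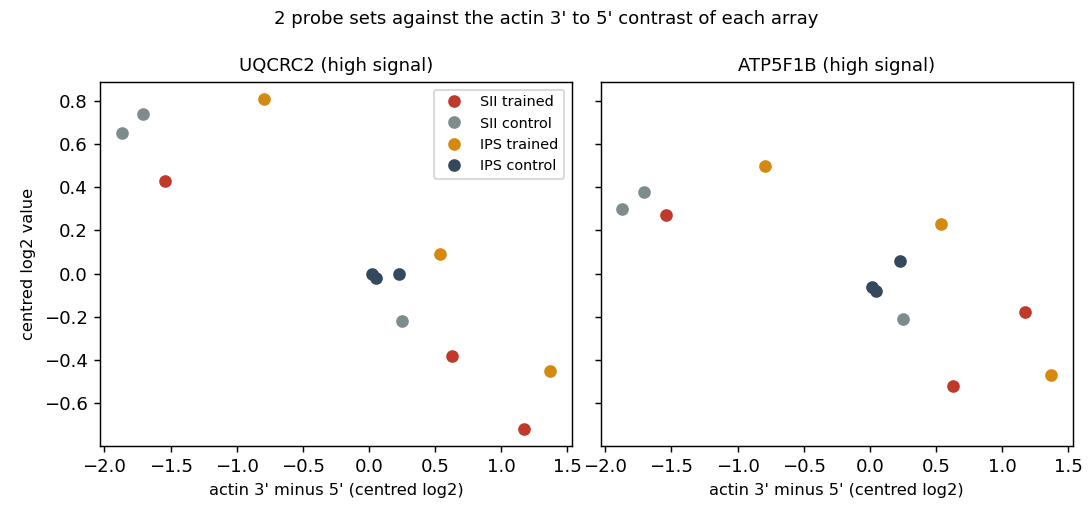
Centred log2 value of UQCRC2 and of 1 of the ATP5F1B probe sets (y axes) against the actin 3′ minus 5′ difference of the same array (x axes, centred log2), coloured by group. The 4 arrays below -0.5 hold the highest values of both probe sets, 0.43 to 0.81 for UQCRC2 and 0.27 to 0.50 for ATP5F1B.

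The other complex III subunits differed in how much they varied within groups, from a pooled SD of 0.11 for UQCRQ to 0.35 and 0.39 for the probe sets of UQCR11, a small accessory subunit. UQCRQ, which stabilises cytochrome b, read -0.04, 0.24 and 0.03 in SII trained and -0.20, -0.17 and -0.20 in SII control, without overlap (0.26 ± 0.19, adjusted p = 1.0). In IPS it read 0.25, -0.02 and 0.18 in trained and -0.07, 0.09 and 0.02 in control arrays, with overlap. UQCRB, a quinone-site subunit, was higher in IPS by 0.35 ± 0.15 with its high-signal probe set (adjusted p = 0.517), in 4 of 4 animals, by 0.08 to 0.37. Its lowest SII arrays were those of the females, -0.41 and -0.33, and in male animals alone the change was 0.26. CYC1, which hands electrons to cytochrome c, differed by -0.01 ± 0.17 between regions, and by -0.05 ± 0.25 with training in SII and 0.20 ± 0.25 in IPS.

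Complex IV, cytochrome c oxidase, overlapped between trained and control animals as a group. Its median over 8 genes was -0.05, 0.27 and 0.02 in SII trained and 0.30, -0.18 and 0.04 in SII control. It was 0.14, 0.20 and -0.10 in IPS trained and -0.03, -0.01 and 0.06 in IPS control. Again the female arrays were the highest of SII. Within animals the sign was mixed, at 0.20 in 334M, -0.12 in 348M, 0.14 in 347M and -0.06 in 354M.

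COX7A2, the isoform of subunit VIIa found in most tissues, had the smallest p of any member for training in SII. Its high-signal probe set read 0.35, -0.22 and -0.06 in SII trained, against -0.66, -0.54 and -0.26 in SII control. Trained arrays lay above control arrays without overlap, though -0.22 and -0.26 nearly met, and the change was 0.50 ± 0.24 (adjusted p = 1.0). In IPS it was 0.47, 0.23 and 0.11 in trained and -0.15, 0.06 and 0.38 in control arrays, with overlap (0.17 ± 0.24). IPS exceeded SII by 0.41 ± 0.17 (adjusted p = 0.509), in 4 of 4 animals, by 0.12 to 0.39.

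COX8A, the small subunit VIII isoform of most tissues, was lower in IPS than in SII. It read -0.36, 0.01 and -0.80 in IPS trained and -0.54, -0.08 and -0.01 in IPS control, against -0.27, 0.47 and 0.49 in SII trained and 0.54, 0.53 and 0.43 in SII control. The regions would be apart but for SII trained 1. The change was -0.67 ± 0.21 (adjusted p = 0.454), and within animals it was -0.09 in 334M, -1.29 in 348M, -1.08 in 347M and -0.52 in 354M (-0.75 ± 0.27, adjusted p = 0.771). In male animals alone it was -0.60.

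The tissue-restricted isoforms gave wide errors. COX4I2, an isoform known from lung and from low oxygen, gave -0.96 ± 0.62 with training in IPS, from -0.81, -1.18 and 0.68 in trained and 1.14, -0.46 and 0.96 in control arrays, which overlapped. COX6A2, known from heart and skeletal muscle, gave 0.79 ± 0.67, from -0.54, 0.41 and 0.81 in trained and -0.95, -0.89 and 0.14 in control arrays. Both are low-signal probe sets. COX7A1, the muscle isoform of subunit VIIa, gave -0.11 ± 0.39 in SII and -0.08 ± 0.39 in IPS. COX5A, a matrix subunit, was read by 3 high-signal probe sets that all averaged higher in trained IPS, by 0.11 ± 0.20 to 0.28 ± 0.28, with groups that overlapped.

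Complex V, the ATP synthase, ran from -0.14 to 0.20 over the arrays, close to the -0.14 to 0.19 of complex I. Its median over 15 genes was -0.04, 0.04 and -0.14 in SII trained and -0.02, -0.08 and -0.07 in SII control. It was 0.20, 0.06 and -0.06 in IPS trained and 0.06, -0.01 and 0.06 in IPS control. The groups overlapped in both regions. IPS was higher in 4 of 4 animals, by 0.23 in 334M, 0.08 in 348M, 0.14 in 347M and 0.07 in 354M.

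ATP5F1B, the catalytic beta subunit, was read by 2 high-signal probe sets that differed in the size of the region change and, within animals, in its sign. One read -0.02, 0.02 and 0.94 in IPS trained and 0.92, 0.06 and 0.54 in IPS control, against -0.06, -0.43 and -0.09 in SII trained and -1.65, 0.13 and -0.53 in SII control. That is a region change of 0.84 ± 0.31 (adjusted p = 0.494), positive in 4 of 4 animals, and 0.55 in male animals alone. The other gave 0.02 ± 0.22, and within animals -0.18 ± 0.29. The second is the probe set that went with the actin difference alongside UQCRC2.

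Of the c-ring, whose rotation drives synthesis, 1 low-signal probe set had the smallest region p of all members. It carries the symbol ATP5G1, an older name of ATP5MC1 that the annotation keeps apart. It read 0.32, -0.01 and 0.04 in IPS trained and 0.19, 0.71 and 0.24 in IPS control, against -0.10, 0.01 and -0.66 in SII trained and -0.24, -0.78 and -0.75 in SII control. The regions touched only at IPS trained 2 and SII trained 2. The change was 0.68 ± 0.19 (adjusted p = 0.421), in 4 of 4 animals, by 0.42 to 1.47. The other ATP5G1 probe set, of high signal, gave 0.25 ± 0.15, the 2 named ATP5MC1 gave -0.49 ± 0.25 and 0.02 ± 0.21, and ATP5MC2 and ATP5MC3 gave -0.03 ± 0.21 and 0.13 ± 0.15.

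Among the stalk and regulatory subunits, differences stayed within about 2 standard errors. ATP5PD, a peripheral stalk subunit, read 0.16, 0.17 and 0.00 in IPS trained and -0.21, -0.04 and 0.00 in IPS control, apart by less than the printed precision (0.19 ± 0.20). ATP5F1C and ATP5F1E, central stalk subunits, each had 1 probe set lower in every trained IPS array than in any control, at -0.60 ± 0.40 from a low signal and -0.24 ± 0.29 from a middle signal. The other probe set of each, of high signal, averaged higher in trained IPS, with overlap. For ATP5F1C it read 0.28, 0.48 and -0.33 in trained and -0.15, -0.04 and 0.04 in control arrays. For ATP5F1E it read 0.05, 0.04 and -0.02 in trained and 0.02, -0.31 and -0.08 in control arrays. ATP5IF1, the protein that blocks ATP hydrolysis by the enzyme, read 0.37, 0.09 and -0.08 in SII trained and -0.50, -0.38 and 0.04 in SII control with its high-signal probe set. The groups overlapped at 1 array each, and the change was 0.40 ± 0.22 (adjusted p = 1.0). Its middle-signal probe set gave -0.08 ± 0.20.

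Between regions, 11 members (10.2%) had an unadjusted p under 0.05 over the 12 arrays, against 9.26% of all probe sets, and 0 passed the 5% false discovery rate, against 0.0%. Within the 4 animals, 5 members (4.63%) did, against 6.29%, and 0 passed, against 0.0%. The 11 were SDHA, SDHC, ATP5G1, ATP5F1B, COX7A2, UQCRB, NDUFAF1 and NDUFB7, higher in IPS, and COX8A, NDUFA4L2 and NDUFV1, lower. For NDUFB7 this was the middle-signal probe set, and the change of its high-signal probe set over 12 arrays lay 0.65 below it. Within animals that high-signal probe set was higher in IPS by 0.33 ± 0.18. Since both female arrays are of SII, the region difference over 12 arrays also carries sex. In male animals alone 3 of the 11 were smaller by more than 1.5 times. NDUFV1 was -0.28 in males, against -0.55 over all arrays, NDUFB7 0.33 against 0.66, and ATP5F1B 0.55 against 0.84. In no member did all 6 IPS arrays lie apart from all 6 SII arrays, against 0.984% of all probe sets. The 95% interval lay within 1 log2 unit of 0 for 89 members over the 12 arrays (82.4%, against 49.1%) and 92 within animals (85.2%, against 45.5%).

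**Figure D4:**
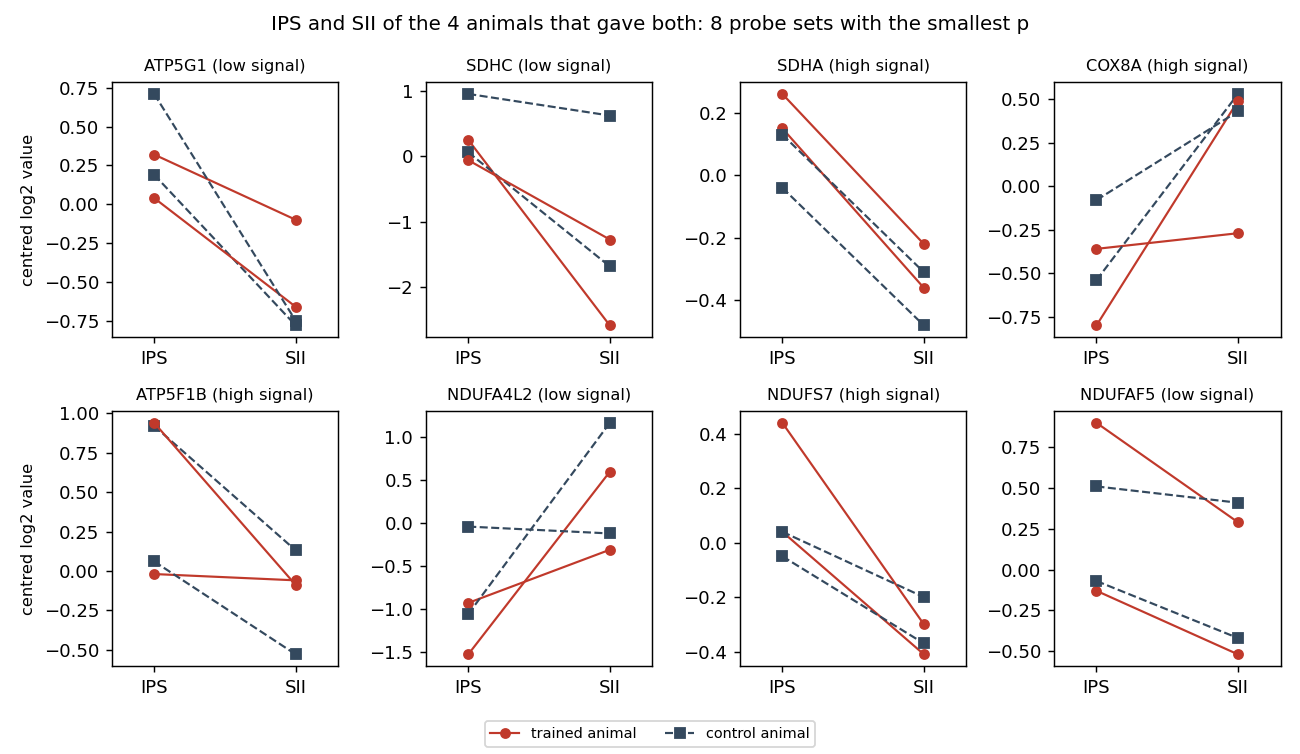
IPS (left) and SII (right) value in centred log2 units for each of the 4 animals that gave both, joined by a line (red circles, trained; dark squares, control), for the 8 probe sets with the smallest p within animals. SDHA shows 4 nearly parallel lines (0.44 to 0.52 higher in IPS), while the lines of SDHC, COX8A and ATP5F1B differ in slope between animals.

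Counting signs within animals, 29 members were higher in IPS in 4 of 4 animals and 4 were lower, against 9.07% and 7.06% of all probe sets. Together these were 30.6% of members, against 16.1%. Among high-signal members the share was 41.8%, against 28.2% of all high-signal probe sets. The 29 held SDHA and both SDHC probe sets, NDUFAF1, NDUFAF3, NDUFS7, UQCRQ, COX7A1, COX7A2 and ATP5PD. The 4 lower were NDUFV1, COX8A and 1 probe set each of NDUFA6 and ATP5IF1. NDUFA6 went both ways: its high-signal probe set and another of middle signal were higher in 4 of 4 animals. The middle-signal probe sets of NDUFS7 and COX7A2 were each higher in 3 of 4 animals.

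The lean of the members toward IPS was largest in 1 animal. By the mean over animals, 79 members were higher in IPS and 29 lower, with a median of 0.11 against 0.03 over all probe sets. Bright probe sets leaned this way in general: 78.2% of high-signal members were higher (median 0.14), against 68.2% of all high-signal probe sets (0.09), and without 334M 60.0% (0.08) against 62.7% (0.07). In 334M, 89 were higher and 19 lower (median 0.30), while 348M had 54 and 54 (0.00), 347M 70 and 38 (0.07) and 354M 63 and 45 (0.06). Without 334M, 64 were higher and 44 lower with a median of 0.07, against 0.06 over all probe sets. SDHA kept its size without that animal, at 0.47, and ATP5G1 was 1.05, whereas the complex III difference is positive in 334M alone. The actin 3′ minus 5′ difference was lower in IPS than in SII in 334M (-0.79 against 1.17). In 348M (1.37 against -1.54), 347M (0.02 against -1.87) and 354M (0.23 against -1.71) it was higher in IPS. With it as a covariate the within-animal median of the members was 0.18. Its part in the lean was not tested further.

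Of the cell type markers, 0 passed the 5% rate between regions, and their part in these differences was not tested. All 10 of 10 microglial genes were lower in IPS, with a median of -0.35 over 12 arrays and -0.42 within animals. C1QB, a complement gene, had the lowest value at -0.70 ± 0.11 (adjusted p = 0.111). The excitatory neuron marker SLC17A7 was lower by -0.89 ± 0.27 while the median of its list was -0.01, and the endothelial receptor FLT1 was lower by -1.12 ± 0.23 with a list median of 0.09. The excitatory and inhibitory neuron lists each had 4 genes higher and 4 lower. Of 8 astrocyte genes, 2 were higher and 6 lower over 12 arrays (median -0.13), SOX9 the lowest at -1.85 ± 0.72. Within animals 3 were higher and 5 lower, with the same median. Of 3 oligodendrocyte genes, 2 were higher and 1 lower over 12 arrays (median 0.05). Over all 14132 genes, 6610 were higher and 7522 lower. The muscle list had a region median of -0.05 over 12 arrays and 0.39 within animals, with 4 genes higher and 2 lower.

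The 2 arrays of female animals lay apart from the other 10 for many complex I members, which are named here after their values were seen. Both lay above all other arrays for 16 members (14.8%, against 9.42% of all probe sets) and below for 5 (4.63%, against 7.30%). Among high-signal members these shares were 21.8% and 1.82%, against 12.8% and 17.6% of all high-signal probe sets. Being apart in either direction was thus no more common in members of that class. Of the 16, 10 were complex I, which held 44 of the 108 members, and of the 5 below, 3 were. Those are 22.7% and 6.82% of complex I, against the 9.42% and 7.30% of all probe sets. NDUFV1 read 1.05 in SII trained 2 and 0.96 in SII control 1, while the other arrays reached 0.52 at most. The high-signal NDUFS8 probe set, an iron-sulfur subunit, read 0.80 and 0.89 in those arrays, against at most 0.36. NDUFB7, on the outer side of the membrane arm, ran both ways: its high-signal probe set read 0.64 and 0.62, above all others, and its middle-signal one -1.38 and -0.91, below all others. These arrays share female sex, raised hybridisation controls and the largest shares of probe sets at the floor. Those shares were 9.75% in SII trained 2 and 9.69% in SII control 1, against at most 8.48% elsewhere. Their animals were also young, at 46 months (SII trained 2) and 54 months (SII control 1). IPS control 3 came from a male of 45 months, and the remaining arrays from animals of 61 to 72 months. The other array with raised controls, IPS trained 3, is of a male animal and of the other region. It read 0.05 for NDUFV1 and 0.04 for the high-signal NDUFS8 probe set. By the way these members were picked, every array of a male animal lies with the rest. The parts of sex, of age, of the raised controls and of the floor share were not tested. Each training arm of SII holds 1 of the 2 arrays of female animals.

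**Figure D5:**
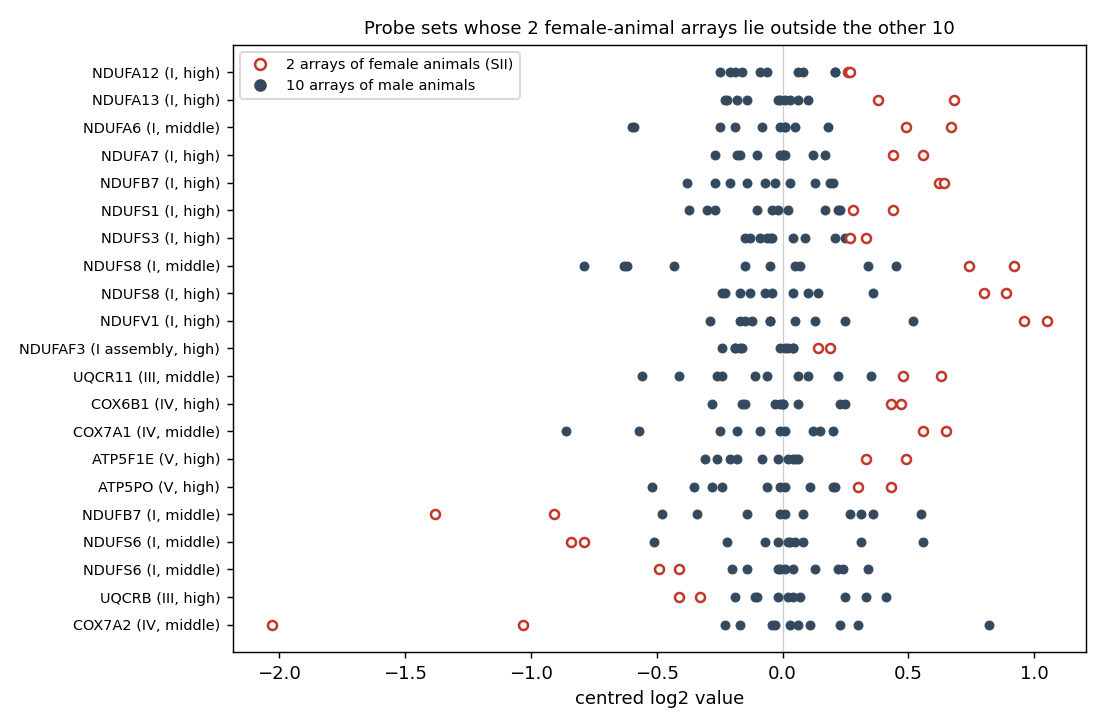
Centred log2 value on every array for the 21 members whose 2 arrays of female animals (open red points) both lie outside the range of the 10 arrays of male animals (dark points); complex and signal class are in the row names. In the upper 16 rows the open points lie above the others, and in the lower 5 below.

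Probe sets of a gene often disagreed in sign. Of the 31 genes with several, all probe sets pointed the same way for training in 13 genes in SII and 15 in IPS, and for the region in 17 over all arrays and 18 within animals.

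Pathway genes around the chain were read as means over probe sets, and 0 were called in any list. Of 8 measured regulators of mitochondrial biogenesis, 2 were higher and 6 lower in trained SII (median -0.11), and 3 and 5 in trained IPS (-0.01). In trained IPS their changes ran from -0.20 to 0.88. There 1 of the 8 had an unadjusted p under 0.05 (limma), against 406 of 14132 genes. PPARGC1A, a coactivator that drives mitochondrial gene expression, gave -0.20 ± 0.23 in SII and 0.00 ± 0.23 in IPS. Of 16 genes of the tricarboxylic acid cycle and pyruvate entry, 7 were higher and 9 lower in trained SII, and 15 and 1 in trained IPS (median 0.07, against 0.03 over all genes). Of 30 assembly factors and carriers outside the member rule, 17 were higher and 13 lower in trained SII, and 20 and 10 in trained IPS. Over all genes, 7699 of 14132 were higher in trained SII and 7722 in trained IPS.

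Between regions the same lists were also without calls. All 8 biogenesis regulators were higher in IPS, with a median of 0.11, PPARGC1A by 0.35 ± 0.16 (adjusted p = 0.468) and TFAM, which packages and transcribes mitochondrial DNA, by 0.43 ± 0.20. Among 11 genes of adenine nucleotide and phosphate exchange, VDAC1, the outer membrane pore, was higher in IPS by 0.42 ± 0.14 and SLC25A5, an ADP/ATP carrier, by 0.38 ± 0.13, while UCP3, an uncoupling protein known from muscle, was lower by -1.27 ± 0.40. The list median was 0.02.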

How the data were processed

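RNA of 12 cortex samples was hybridised to Affymetrix rhesus arrays after 3′ in vitro transcription labelling, per the labels' protocols. The deposited values are on a log2 scale (base inferred from the values), made with MAS5 per the submitters' processing notes, with version and scaling not given in the sources used here. The authors centred each probe set to a median of 0 over the arrays. 99 control probe sets were left out, and genes were named from the platform annotation.

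Group means were fitted to 52766 probe sets with limma 3.58.1 (R 4.3.3, statmod 1.5.0), with the animal as a random block (correlation 0.0474) and moderated variances. P-values were adjusted by Benjamini-Hochberg over all probe sets at 5%. The within-animal fit used 8 arrays with the animal as a fixed block. Gene values are means over probe sets. With 3 arrays a group, an exact permutation test cannot give a p below 0.1, so none was run. The number of arrays limits the precision. Changes are trained minus control and IPS minus SII.

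Genes were named by a rule: the 3 smallest p per complex and comparison, all SDH genes, CYC1, listed isoforms, and high-signal members whose groups did not overlap. Members, lists and rules were chosen with earlier results of these data known. Fits were tested on simulated data. The actin covariate was chosen after seeing the data.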

Additional observations from a re-analysis of the deposited data

How the results depend on the processing

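No member of the respiratory chain passed the 5% rate under any alternative, of which there were 24 for training in SII, 24 in IPS, 23 for their difference, 23 for the region and 9 within animals. The lowest adjusted p of a member was 0.77, 0.452, 0.493, 0.197 and 0.45. Members with an unadjusted p under 0.05 numbered 0 to 2, 0 to 5, 0 to 6, 6 to 13 and 1 to 8. None of the 490 alternative values of the complex medians moved by more than the spread between arrays of a group. Small differences could turn sign within that spread, as the training difference of complex I in SII did. This count therefore does not show that their signs are stable.

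Over all probe sets, where 0 were called, training in SII gave 1 with quantile normalization, 2 with array weights, 2 with sex as a covariate, 1 among high or middle signals, and 0 to 3 with each array left out. Training in IPS gave 0 to 2 with arrays left out. The difference gave 1 without the 3 arrays with raised hybridisation controls, 1 with the actin covariate, and 0 to 2 with arrays left out. The region gave 5 with quantile normalization, 2 with sex, 3 with gene means, and 0 to 14 with arrays left out, the most without SII trained 3. With the replicate number as a block, 0 were called in each of 4 comparisons. Between regions the numbers mark the same animal in the trained arm (1 and 3) but not in the control arm, and between trained and control arrays they mark different animals, so this block is no pairing.

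Of 93 named changes, 10 turned sign somewhere, all of them small. SDHA, training in SII, was 0.04 with array weights, 0.10 in males, 0.09 without raised controls, and -0.12 to 0.14 with arrays left out. SDHA, training difference, was -0.02 in males and as low as -0.06 with arrays left out. SDHB, region, was 0.02 with quantile normalization, 0.06 with array weights, 0.08 with sex, 0.08 in males, 0.20 without raised controls, 0.03 with actin, and up to 0.13 with arrays left out. SDHB, training in SII, was 0.04 with actin and -0.14 to 0.05 with arrays left out. With arrays left out it was -0.12 to 0.32 in IPS and -0.09 to 0.36 for the difference, and -0.09 to 0.18 within animals. NDUFAF5, training in SII, was 0.04 with actin and -0.27 to 0.02 with arrays left out. UQCRC1, region, was -0.01 with sex and in males, and UQCRFS1 within animals 0.02 with actin. The causes were not tested.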
